A study of Mus musculus with 16 samples.

Results

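Eph receptors are the receptors for the ephrins, and 10 of their genes were followed here: Epha1, Epha2, Epha3, Epha4, Epha5, Epha7, Epha8, Ephb2, Ephb3 and Ephb4. Their probes were found by matching the RefSeq accession of each array probe to a gene symbol. The 10 genes had 14 probes, of which 12 passed the filter on dim probes, and all 10 were among the 14575 genes tested. Epha8 was chosen for its rise after the immunotoxin LMB2, so its values after LMB2 are given as a description, with no test. The other members were named as a family, and the remaining family members on the array (Epha6, Epha10, Ephb1 and Ephb6) are given beside them.

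Messenger RNA on the ribosomes of mouse kidney glomeruli was measured on 16 arrays of 1 colour, 4 in each of 4 groups, all from mice on the C57BL/6N background. Podocytes are the epithelial cells whose foot processes cover the glomerular capillaries. In Nphs1-RiboTag mice, Cre recombinase under the nephrin gene Nphs1 puts an HA tag on a ribosomal protein, and an antibody to the tag then pulls down the polysomes of those cells. The first group held such podocyte RNA of uninjured Nphs1-RiboTag mice, and the second the polysome RNA of glomerular cells of uninjured Nphs1-RiboTag mice without that pull-down, which therefore includes the podocytes' own. The remaining groups held podocyte RNA of Nphs1-RiboTag-NEP25 mice taken 4 or 7 days after 1 tail vein injection of LMB2 at 0.625 ng per g of body weight. NEP25 mice carry human CD25 on podocytes, and LMB2 binds CD25 and stops protein synthesis in those cells. The genotype of the uninjured mice is taken from the series' design text. The labels of their samples do not say whether they carried NEP25, so whether the groups before and after LMB2 differ in that transgene as well as in the toxin is not known here.

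The Eph receptors are the largest family of receptor tyrosine kinases, and their ligands are held on the membrane of a neighbouring cell. EphA receptors mostly bind ephrin-A ligands, which are anchored by a lipid, and EphB receptors mostly bind ephrin-B ligands, which span the membrane. Both partners signal, the receptor into its own cell and the ephrin into the other, and the outcome is often repulsion, adhesion or a change in the actin cytoskeleton. In the glomerulus, ephrin-B1 is known at the slit diaphragm between podocytes, and ephrin-B2 with EphB4 is known in endothelial cells.

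By the scanner program's flag, 49.25% to 57.53% of spots stood well above background on each array, and the 75th percentile of intensity ran from 197 to 356. The 8 arrays of uninjured mice were on 1 slide and the 8 arrays after LMB2 on another, so injury and slide cannot be told apart. On the second slide the day 7 arrays were in 1 row and the day 4 arrays in the other, so time and slide row cannot be told apart either. The labels do not say that each array held a separate animal, so the p-values measure the spread between these samples. All 8 podocyte markers were higher in podocyte than in glomerular RNA, with a median log2 difference of 2.35, and all 9 endothelial markers were lower, with a median of -4.02. After LMB2, 5 of the 8 podocyte markers fell at day 4 and 7 of 8 at day 7, against 21.6% and 36.3% of all genes. In such bulk RNA, fewer cells of a type and less RNA per cell cannot be told apart. Podocyte arrays 4 of the normal group, 1 of day 4 and 4 of day 7 were high in proximal tubule genes: the mean of that list lay 1.08, 1.63 and 2.20 above the normal podocyte mean on the log2 scale, and at -1.45 to -0.09 in the other 9 podocyte arrays.

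Levels are given as log2 of the processed intensity minus that array's 75th percentile, in the order of replicates 1 to 4, and are compared only within a probe. Differences are log2 differences of group means with limma's SE, n = 4 arrays per group, and a gene was called when the Benjamini-Hochberg adjusted p over all genes tested was under 0.05. Epha2, Epha4, Epha5, Ephb2, Ephb3 and Ephb4 were well above background on all 16 arrays. Epha1 was above background on 15 arrays, Epha3 and Epha7 on 14 each, and Epha8 on 8.

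**Figure D1:**
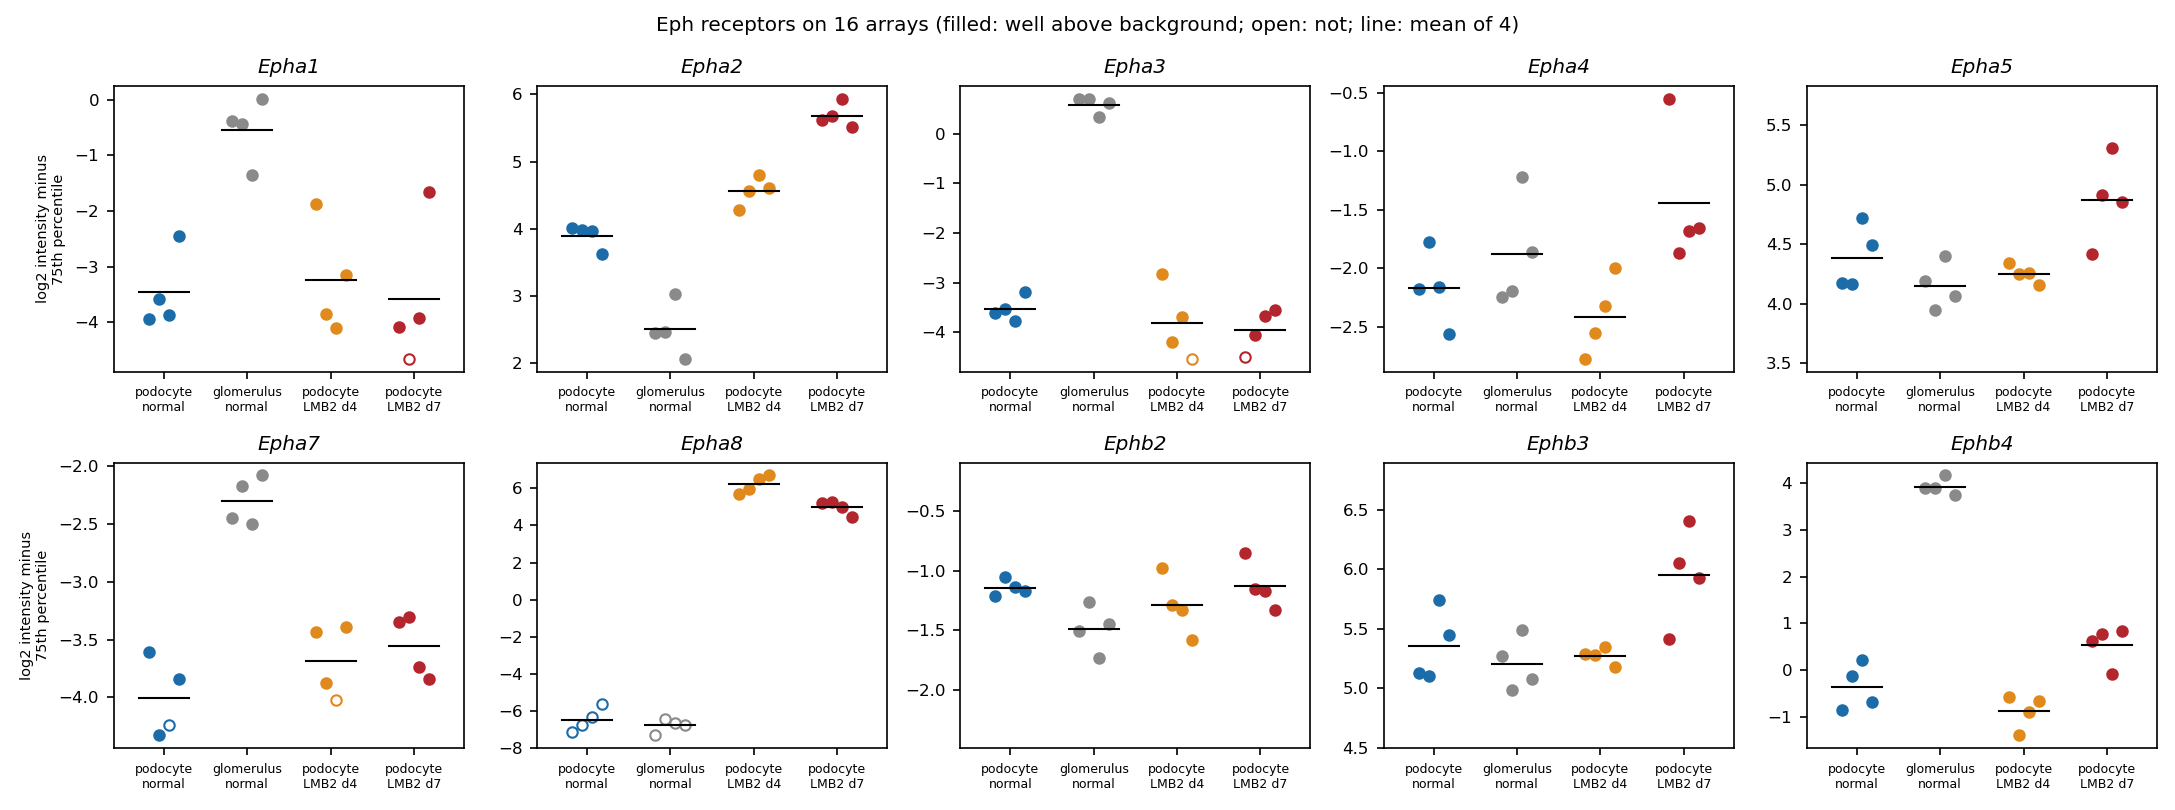
Each panel plots the log2 intensity minus the array's 75th percentile (y axis) of 1 Eph receptor on the 16 arrays, grouped on the x axis by normal podocytes, normal glomeruli and podocytes at days 4 and 7 after LMB2; filled points were well above background, open points were not, and lines are means of 4 arrays. Epha1, Epha3, Epha7 and Ephb4 were highest in glomeruli, Epha2 rose from glomeruli to normal podocytes to day 7, and Epha8 was above background only after LMB2.

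Podocyte and glomerular RNA of uninjured mice were compared to ask which receptors the tagged ribosomes held. Epha2 and Ephb2 were higher in podocyte RNA, and Epha1, Epha3, Epha7 and Ephb4 were lower. The falls reached 19.6-fold for Ephb4 and 17.2-fold for Epha3, while Epha2 was 2.63-fold higher. Thus 6 of the 10 receptors were called, 2 higher and 4 lower, where 79.1% of all genes were called, 51.6% higher and 27.6% lower. The groups did not overlap for 6 of the 10, against 73% of all genes (47.8% higher and 25.3% lower). The median of the 10 differences was -0.07 and that of all genes 0.38. The 10 include Epha8, which was not well above background in either group. It passed the filter only through the groups after LMB2.

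Epha2, an epithelial receptor of ephrin-A1, had levels of 4.02, 3.98, 3.96 and 3.62 in normal podocytes and 2.45, 2.46, 3.03 and 2.06 in glomeruli. Every podocyte array lay above every glomerular array, and the difference was 1.40 ± 0.18 (adjusted p = 4.8e-06). Ephb2, a receptor of ephrin-B ligands known from axon guidance, was at -1.21, -1.05, -1.14 and -1.17 in podocytes and -1.51, -1.26, -1.73 and -1.45 in glomeruli. These groups did not overlap but lay close, with a difference of 0.35 ± 0.14 (adjusted p = 0.029). The call of Ephb2 was lost without podocyte replicate 2 (0.32) or 3 (0.35), without glomerular replicate 1 (0.34) or 3 (0.27), and with each array's median over the genes tested set to 0 (0.29). Its value was 0.53 with quantile normalization and 0.67 with each array's median over all probes set to 0.

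Ephb4, the receptor of ephrin-B2 on venous endothelium, was at -0.86, -0.14, 0.22 and -0.69 in podocytes and 3.90, 3.89, 4.16 and 3.74 in glomeruli. The gap between the groups was far wider than the spread within either, at -4.29 ± 0.26 (adjusted p = 2.8e-09), and a second Ephb4 probe gave -3.76. For Epha3, a receptor of ephrin-A ligands, the 4 podocyte arrays were at -3.61, -3.54, -3.76 and -3.18 and the glomerular arrays at 0.69, 0.70, 0.33 and 0.61. The groups lay apart by -4.11 ± 0.30 (adjusted p = 1.8e-08), or by -2.51 and -2.42 after normexp background correction with the 75th percentile or quantile scaling. All 9 endothelial markers were lower in podocyte RNA with both genes, and all 8 mesangial and smooth muscle markers were lower too, with a median of -3.02. The summed level of the endothelial markers was 38.5 to 83.6 times the 75th percentile in podocyte arrays and 643 to 785 times in glomerular arrays. Each endothelial and mesangial marker was above background on at least 1 normal podocyte array, and the part of these cells in the differences of Ephb4 and Epha3 was not tested.

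Epha1, an epithelial receptor of ephrin-A ligands, had levels of -3.94, -3.59, -3.86 and -2.45 in podocytes and -0.38, -0.44, -1.34 and 0.01 in glomeruli. Glomeruli were higher on every array, by 7.58-fold (podocyte minus glomerular difference -2.92 ± 0.61, adjusted p = 5.1e-04). After normexp correction the difference was -1.59 or -1.46, by the scaling. The highest podocyte array for Epha1, replicate 4, was the one high in proximal tubule genes, and the lowest glomerular array, replicate 3, was the lowest of its group in those genes (2.52 above the normal podocyte mean, the others 3.54 to 3.96). All 8 proximal tubule markers were lower in podocyte RNA, with a median of -3.29, and their part in the Epha1 difference was not tested. Epha7, a receptor known from axon guidance and cell sorting, was at -3.61, -4.33, -4.24 and -3.84 in podocytes and -2.45, -2.17, -2.50 and -2.08 in glomeruli, with no overlap. It differed by -1.70 ± 0.19 (adjusted p = 1.7e-06), which shrank to -0.49 or -0.44 after normexp correction. Its second probe that passed the filter was above background in glomeruli alone, so no difference is given for it.

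Epha4, which binds ephrins of both classes, overlapped between podocytes (-2.17, -1.77, -2.16 and -2.56) and glomeruli (-2.24, -2.20, -1.22 and -1.86). Its difference was -0.29 with a 95% interval of -0.92 to 0.34 (adjusted p = 0.38). Epha5 and Ephb3 also overlapped, with differences of 0.24 (interval -0.13 to 0.60) and 0.15 (interval -0.26 to 0.56). Both were called higher when each array's median over all probes was set to 0, at 0.55 and 0.47, and both turned below 0 with quantile normalization, at -0.14 and -0.18. Epha8 was not well above background in either group, and no fold is given.

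**Figure D2:**
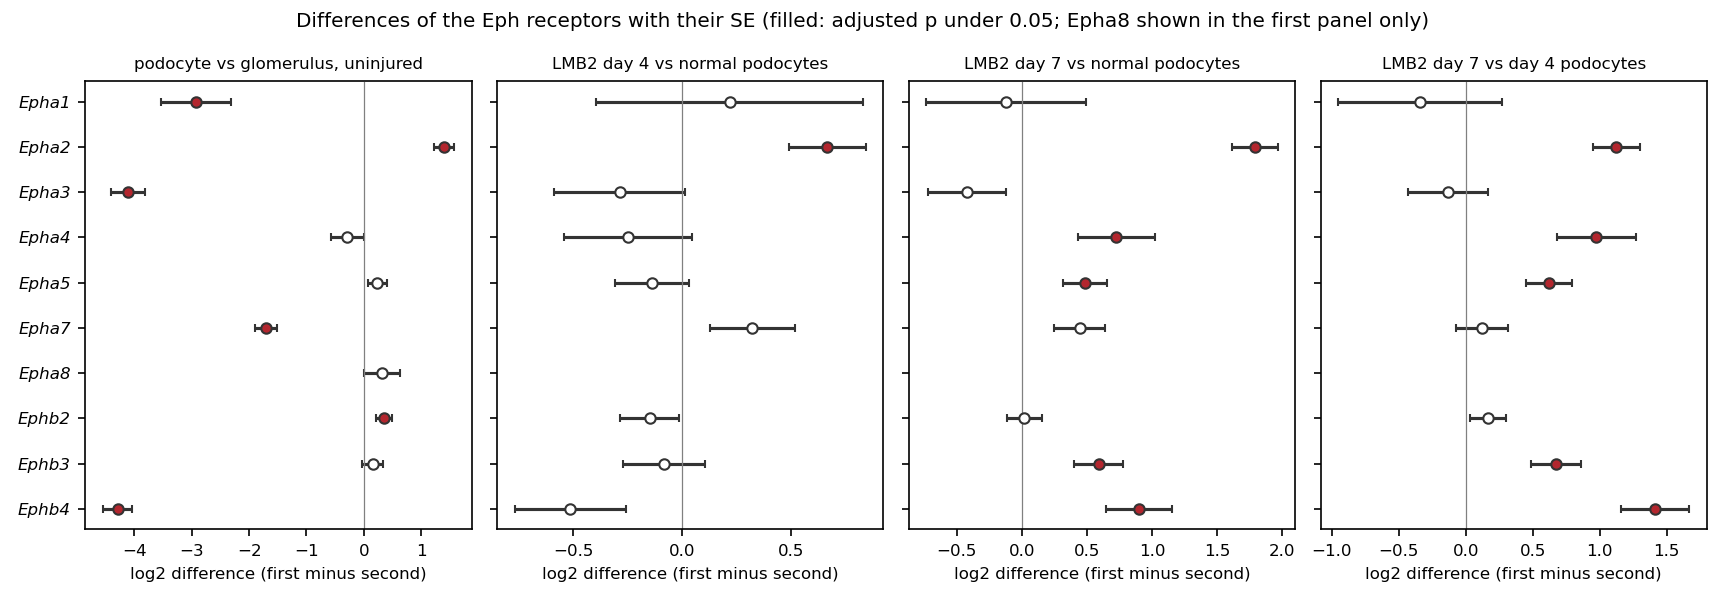
Each panel gives the log2 difference (x axis) with its SE for the Eph receptors (y axis) in 1 of the 4 comparisons, named as first against second group; filled points had an adjusted p under 0.05. Ephb4 and Epha3 lay lowest in the first panel at -4.29 and -4.11, and Epha2 was called in all 4 panels; Epha8 is shown in the first panel only.

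Epha8, a receptor of ephrin-A ligands best known from the developing midbrain, went from background to bright signal after LMB2. Its processed intensity was 2.24, 2.52, 3.39 and 5.33 on the normal podocyte arrays and 2.25, 3.83, 3.00 and 2.73 on the glomerular arrays. None of these 8 was well above background, since the lowest signal with that flag on any array was 6.07 and ran up to 12.8. Day 4 podocytes gave intensities of 12155, 14108, 19784 and 26795, and day 7 podocytes 8172, 7453, 7167 and 5891. Every array after LMB2 was above background, and every day 4 array was above every day 7 array.

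On the processed intensities, set against the lowest signal well above background, Epha8 was at least 1865-fold higher at day 4 and at least 802-fold higher at day 7 than in normal podocytes. These bounds take the group mean of the bright arrays over a mean of the dim arrays, in which each array counts with its lowest flagged signal or with the probe's signal, whichever is greater. On the scaled log2 levels, day 4 had a mean of 6.20 ± 0.46 and day 7 of 4.98 ± 0.36 (SD, n = 4), so that day 7 lay 2.33-fold below day 4. The size of the rise depended on the background correction: the fitted day 4 difference of 12.66 was 8.11 or 8.02 after normexp, and that of day 7 fell from 11.44 to 6.90 or 6.82. These log2 values after normexp are smaller than the bounds above, so the bounds hold only for the scaled processed intensities without normexp. A single probe measured Epha8. Normal and injured arrays were on different slides, and a part of the slide in this difference was not tested.

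**Figure D3:**
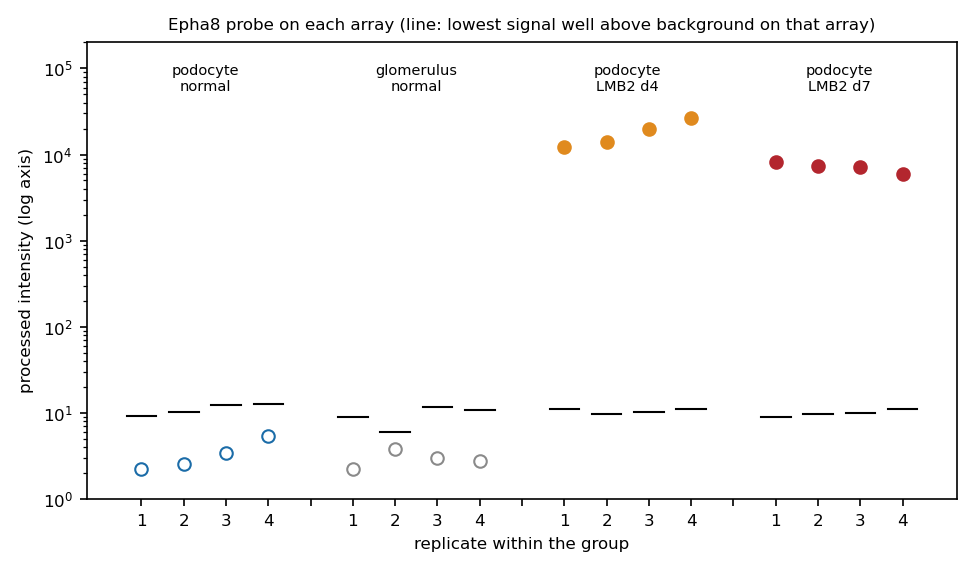
The processed intensity of the Epha8 probe (y axis, log scale) is plotted for each replicate (x axis) of the 4 groups; filled points were well above background, open points were not, and the black lines mark the lowest signal well above background on each array. The 8 arrays of uninjured mice lie below their lines, the day 4 arrays between 12155 and 26795, and the day 7 arrays between 5891 and 8172.

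The window upstream of Epha8 is shown because no other member went from background to signal. It spans 200 bases, from 250 to 51 bases before the RefSeq start, at chr4:136956867-136957066 on the minus strand of GRCm38.p6, read 5′ to 3′ from RefSeq's promoter table. Capitals mark a match to GCGGGGGCG, the site bound by factors of the EGR family.
Epha8: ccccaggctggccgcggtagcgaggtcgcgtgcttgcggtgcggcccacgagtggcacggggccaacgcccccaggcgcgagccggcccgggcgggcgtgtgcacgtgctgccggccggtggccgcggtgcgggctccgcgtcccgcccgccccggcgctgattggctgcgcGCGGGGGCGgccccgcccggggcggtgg
The window was 83.5% G and C and held 35 CG dinucleotides, against a median of 4 over 32851 mouse promoters, and 99.4% of these held fewer. Motifs were searched on both strands of the full promoter windows, which are longer than the 200 bases shown and contain them. The sequence GCGGGGGCG was found in 2.91% of all these full windows, and among the 10 receptors in those of Epha1 and Epha8. The AP-1 site TGANTCA was in 7.81% of all windows and in those of none of the 10, the cyclic AMP response element TGACGTCA in 1.79% and in that of Epha2, and a 10-letter NF-kappaB consensus in 0.155% and in none of the 10. A match is a description of the letters only.

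Over the 16 arrays, the 5 genes whose pattern was most like that of Epha8 were Egr4, a zinc finger factor of the EGR family (Pearson r 0.997), Olig3, a bHLH factor of neural progenitors (0.996), Ctrb1, chymotrypsinogen (0.995), Col22a1, a collagen (0.994), and Il19, a cytokine (0.994). Egr4, Olig3, Col22a1 and Il19 were, like Epha8, well above background on none of the 8 uninjured arrays and on all 8 arrays after LMB2. By the same bound as for Epha8, day 4 and day 7 were at least 52.5-fold and 30.1-fold higher than normal podocytes for Egr4, 15.4-fold and 8.76-fold for Olig3, 195.8-fold and 175.3-fold for Col22a1, and 9.01-fold and 7.25-fold for Il19. Ctrb1 was above background on all arrays, with log2 differences of 5.84 and 5.05. These genes were picked for their likeness to Epha8, so the values are a description. In all, 15 of 14574 other genes had an r above 0.99 with Epha8. The points of each correlation share the 4 groups and the 2 slides.

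LMB2 at day 4 was compared with normal podocytes for the 9 receptors other than Epha8. Epha2 was the 1 receptor of 9 called, 1.59-fold higher, where 33.7% of all genes were called, 12.1% higher and 21.6% lower. Epha2 was also the 1 receptor whose groups did not overlap, against 34.1% of all genes (11.7% higher and 22.4% lower). The median of the 9 differences was -0.14, as was that of all genes. Of the calls over all genes, 35.8% were higher, a share that was 16.9% with each array's median over all probes set to 0 and 49.3% with the median over the genes tested set to 0. With the median over all probes, 2 of the 9 receptors were called, both lower (Ephb2 and Ephb4).

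At day 7, Epha2, Epha4, Epha5, Ephb3 and Ephb4 were higher than in normal podocytes, by 3.46-fold for Epha2 and by 1.40-fold to 1.87-fold for the other 4. These were 5 of the 9 receptors, where 58.3% of all genes were called, 22% higher and 36.3% lower. The groups did not overlap for 1 of the 9, Epha2, against 50.6% of all genes (17.9% higher and 32.6% lower). The median of the 9 differences was 0.49 and that of all genes -0.14. The share of higher calls over all genes was 37.7%, and 21% with each array's median over all probes set to 0. The count of 5 was 3 without day 7 replicate 3, 3 with that median (2 higher and 1 lower, Epha3), and 2 when the fit held the 8 arrays compared alone.

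Between day 4 and day 7 the same 5 receptors, Epha2, Epha4, Epha5, Ephb3 and Ephb4, were higher at day 7. Here 32.6% of all genes were called, 14% higher and 18.6% lower. The groups of these 5 did not overlap, 5 of 9 receptors against 33.1% of all genes (13.4% higher and 19.8% lower). The median of the 9 differences was 0.62 and that of all genes -0.04. The day 7 arrays enter both this comparison and the one with normal podocytes. Without the 3 arrays high in tubule genes the count was 3 in each of these comparisons.

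Epha2 rose at each step, with levels of 4.28, 4.56, 4.79 and 4.60 at day 4 and 5.61, 5.68, 5.93 and 5.51 at day 7. Every day 4 array was above every normal podocyte array, and every day 7 array above every day 4 array. The difference from normal was 0.67 ± 0.18 at day 4 (adjusted p = 0.010) and 1.79 ± 0.18 at day 7 (adjusted p = 1.2e-06), and day 7 lay 1.12 ± 0.18 above day 4 (adjusted p = 3.5e-04). The day 4 call was lost with each array's median over all probes set to 0 (0.42). In order of level, day 7, day 4, normal podocytes and glomeruli were each apart from the next beyond their spread.

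Ephb4 was at -0.58, -1.40, -0.89 and -0.65 at day 4 and at 0.62, 0.77, -0.08 and 0.83 at day 7. Its day 4 arrays overlapped normal podocytes (difference -0.51, interval -1.06 to 0.03, adjusted p = 0.14), and its day 7 arrays overlapped them through replicate 3 of both groups. Day 7 was higher than normal by 0.90 ± 0.26 (adjusted p = 0.0075) and higher than day 4 by 1.41 ± 0.26 (adjusted p = 9.6e-04), a 2.66-fold difference with no overlap. The second Ephb4 probe gave 0.60 and 1.02. The day 7 call against normal was lost without the 3 arrays high in tubule genes (0.69), and with each array's median over all probes set to 0 the value was 0.57 and the day 4 fall was called (-0.76). With the replicate number as a block the day 7 call against normal was also lost (adjusted p = 0.0615). Uninjured glomeruli, on the other slide, lay 3.39 above day 7 podocytes in level, well beyond the spread of either group. This difference was not tested. Of the 9 endothelial markers, 2 rose and 1 fell between day 4 and day 7, where 14% of all genes rose and 18.6% fell. The median of the 9 differences was 0.47. Their summed level was 26.1 to 46.6 at day 4 and 31.6 to 48.8 at day 7, so the ranges overlapped. A part of endothelial RNA in the day 7 rise of Ephb4 was not tested.

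Epha4 was at -2.77, -2.56, -2.32 and -2.001 at day 4 and at -0.55, -1.87, -1.68 and -1.66 at day 7. Replicate 1 stood well above the other 3 day 7 arrays. Epha4 differed from normal by -0.25 at day 4 (interval -0.88 to 0.38) and by 0.73 ± 0.29 at day 7 (adjusted p = 0.046), and day 7 lay 0.97 ± 0.29 above day 4 (adjusted p = 0.021). The day 7 call against normal was lost without day 7 replicate 1 (0.43) or 4 (0.80), without normal replicate 1 (0.72), 3 (0.73) or 4 (0.60), without the 3 arrays high in tubule genes (0.67), when the fit held the 8 arrays alone, with no filter on dim probes, with quantile normalization (0.54, or 0.35 after normexp) and with each array's median over all probes set to 0 (0.40). Against day 4 the call was lost without day 4 replicate 1 (0.85) or 2 (0.93), without day 7 replicate 1 (0.68) and without the 3 arrays high in tubule genes (0.93), and the difference was 0.55 after normexp with either scaling. With the replicate number as a block the day 7 calls against normal and against day 4 were lost (adjusted p = 0.0762 and 0.107).

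Epha5 and Ephb3, receptors of the A and B class known from axon guidance, gave nearly the same profile. Epha5 was at 4.17, 4.17, 4.72 and 4.50 in normal podocytes, 4.19, 3.95, 4.40 and 4.07 in glomeruli, 4.34, 4.25, 4.26 and 4.16 at day 4 and 4.42, 4.92, 5.31 and 4.85 at day 7. Ephb3 was at 5.13, 5.11, 5.74 and 5.45, then 5.27, 4.99, 5.49 and 5.08, then 5.29, 5.28, 5.35 and 5.18, and at day 7 at 5.41, 6.05, 6.40 and 5.93. For both genes replicate 3 was the highest and replicate 1 the lowest of the day 7 arrays, which overlapped normal podocytes but not day 4.

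At day 7 Epha5 was higher than normal by 0.49 ± 0.17 (adjusted p = 0.024) and than day 4 by 0.62 ± 0.17 (adjusted p = 0.013). Ephb3 was higher by 0.59 ± 0.19 and 0.67 ± 0.19 (adjusted p = 0.015 for each). The day 7 call of Epha5 against normal was lost without normal replicate 1 (0.41) or 2 (0.41), without day 7 replicate 2 (0.47) or 3 (0.34) and without the 3 arrays high in tubule genes (0.53), and that of Ephb3 without day 7 replicate 3 (0.44). Both were lost with each array's median over all probes set to 0 (0.16 and 0.26) and when the fit held the 8 arrays alone. Against day 4, Ephb3 was no longer called without the 3 arrays high in tubule genes (0.69). With the replicate number as a block, neither Epha5 nor Ephb3 was called against day 4 (adjusted p = 0.0702 and 0.0589). At day 4 the differences from normal were -0.14 (interval -0.50 to 0.23) and -0.08 (interval -0.49 to 0.32).

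Relative to the normal podocyte mean, the Epha5 and Ephb3 probes differed from each other by -0.16 to 0.03 over the 16 arrays, with an SD of 0.06, while each varied with an SD of 0.36 and 0.39. The second Epha5 probe was not well above background on any array, with intensities of 2.22 to 7.14, while the bright probe gave 4252 to 8872. Both probes matched the same RefSeq transcript, and whether the bright one measures Epha5 was not tested. So the rise given for Epha5 was seen by 1 probe alone, and a check by the other was not possible. Genes with an r above 0.99 over the 16 arrays numbered 30 for Epha5 and 25 for Ephb3, and for both the closest was a gene of another kind: Bpifc, of a lipid-binding family, for Epha5 (0.998) and Mtfr2, a mitochondrial protein, for Ephb3 (0.998). This count was made after the values were seen, and the points share the groups and slides.

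**Figure D4:**
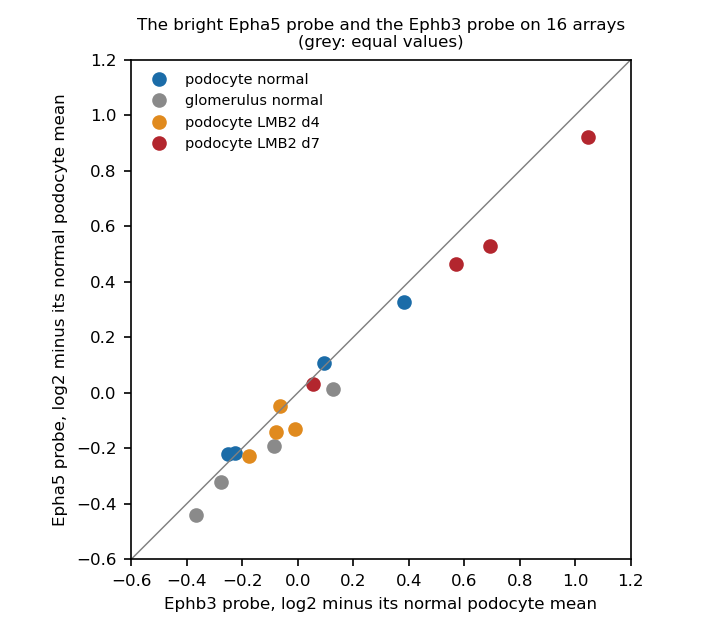
The log2 level of the bright Epha5 probe (y axis) is plotted against that of the Ephb3 probe (x axis), each minus its normal podocyte mean, on the 16 arrays; colours are the 4 groups and the grey line marks equal values. The points follow the line from glomeruli at the lower left to day 7 replicate 3 at the upper right, with gaps of -0.16 to 0.03.

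The other 4 receptors were not called after LMB2. Epha1 ranged widely, at -1.86, -3.85, -4.11 and -3.15 at day 4 and -4.08, -4.65, -3.92 and -1.66 at day 7. Its highest array in each of the 3 podocyte groups was the array high in proximal tubule genes, and a part of tubule RNA in this was not tested. The differences from normal were 0.22 (interval -1.09 to 1.53) at day 4 and -0.12 (interval -1.43 to 1.19) at day 7. Epha3 was at -2.83, -4.19, -3.70 and -4.53 at day 4 and -4.50, -4.05, -3.68 and -3.55 at day 7, and overlapped normal podocytes at both times. Its differences were -0.29 (interval -0.93 to 0.35) and -0.42 (interval -1.06 to 0.22). The day 7 fall of Epha3 was called with each array's median over all probes set to 0 (-0.75), and after normexp it was 0.02, or -0.26 and called with quantile scaling.

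Epha7 was at -3.44, -3.88, -4.02 and -3.39 at day 4 and -3.35, -3.30, -3.74 and -3.84 at day 7, all below every glomerular array. It differed from normal by 0.32 (interval -0.09 to 0.74, adjusted p = 0.22) at day 4 and by 0.44 (interval 0.03 to 0.86, adjusted p = 0.063) at day 7. The day 7 difference was called without normal replicate 1 (0.58), without day 7 replicate 4 (0.54), without the 3 arrays high in tubule genes (0.59), with each array's median over the genes tested set to 0 (0.55) and after normexp with the 75th percentile (0.27). Ephb2 varied least, at -0.97, -1.29, -1.33 and -1.58 at day 4 and -0.85, -1.15, -1.16 and -1.33 at day 7. Its group means spanned 0.37 on the log2 scale, against 0.72 to 12.98 for the other 9 receptors, and its differences from normal were -0.15 (interval -0.44 to 0.14) and 0.02 (interval -0.27 to 0.31). With each array's median over all probes set to 0, the day 4 fall of Ephb2 was called (-0.39).

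Some genes listed as markers of other cell types were also higher at day 7. All 6 parietal epithelial markers rose against normal podocytes, with a median of 1.36, where 22% of all genes were called higher. Their summed level was 2.99 to 3.90 times the 75th percentile in normal podocytes and 21.8 to 30.7 times in normal glomeruli. It was 2.82 to 3.97 at day 4 and 4.68 to 10.1 at day 7. Of the 8 mesangial and smooth muscle markers 3 rose at day 7, Tagln (6.01, the most), Des and Acta2. The other 5, which were Pdgfrb, Itga8, Gata3, Myh11 and Ren1, were not called, with Pdgfrb lowest at -0.47. The summed level of all 8 was 28.0 to 40.5 in normal podocytes and 123 to 191 in normal glomeruli. It was 53.4 to 90.4 at day 4 and 945 to 1256 at day 7. Each of these 14 markers was above background on at least 1 day 7 array. Whether their RNA came from those cell types was not tested, and neither was their part in the rises of Epha2, Epha4, Epha5, Ephb3 and Ephb4.

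Patterns most like those of the receptors whose group means spanned over 2 on the log2 scale were as follows, as Pearson r over the 16 arrays. Epha2 was nearest to Myadm, a membrane protein of the myelin and lymphocyte family (0.983), and Ctps, the synthase of CTP (0.980). For Epha3 these were Clec1a, a lectin-like receptor (0.991), and Kcnj5, a potassium channel (0.989), and for Ephb4 Rhoj, a small GTPase of endothelial cells (0.994), and Fgf1, a growth factor (0.992). Epha1 was nearest to Gas2, a growth arrest protein (0.976), and Cdhr5, a cadherin of brush borders (0.974).

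Among the remaining receptors of the family, Epha6 and Ephb1 moved in opposite directions after LMB2. Epha6, a receptor of ephrin-A ligands found mainly in brain, was at -4.83, -4.47, -2.80 and -3.73 in normal podocytes, -1.34, -1.88, -0.78 and -1.35 in glomeruli, -0.98, -1.33, -1.81 and -1.87 at day 4 and 0.16, 1.47, 0.92 and 0.51 at day 7. Both groups after LMB2 lay above every normal podocyte array, and day 7 lay above all other arrays. It was lower in podocytes than in glomeruli by -2.62 ± 0.40 (adjusted p = 3.0e-05), and rose 5.51-fold at day 4 (2.46 ± 0.40, adjusted p = 3.4e-04) and 26.4-fold at day 7 (4.72 ± 0.40, adjusted p = 2.9e-07). After normexp the log2 values of Epha6 were -1.12 or -1.01 between podocytes and glomeruli, 1.08 or 0.96 at day 4 and 2.77 or 2.69 at day 7.

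Ephb1, a receptor of ephrin-B ligands, was at 5.21, 5.10, 5.32 and 4.97 in normal podocytes, 3.17, 3.17, 3.74 and 3.07 in glomeruli, 4.55, 4.69, 4.51 and 4.31 at day 4 and 2.44, 3.29, 3.67 and 3.36 at day 7. Its levels stepped down from normal podocytes to day 4 to day 7 with no overlap. It was 3.64-fold higher in podocytes than in glomeruli (1.86 ± 0.22, adjusted p = 2.0e-06), fell by 0.63 ± 0.22 at day 4 (adjusted p = 0.036) and was 3.89-fold lower than normal at day 7 (-1.96 ± 0.22, adjusted p = 3.5e-06). The day 4 call of Ephb1 held in 10 of 20 alternatives, and was lost without normal replicate 1 (-0.61), 2 (-0.65) or 3 (-0.57), without day 4 replicate 1 (-0.65), 3 (-0.63) or 4 (-0.56), without the 3 arrays high in tubule genes (-0.71), with quantile normalization (-0.55), with each array's median over the genes tested set to 0 (-0.54) and with no filter on dim probes. Ephb6, whose kinase domain is inactive, was 2.39-fold lower in podocytes than in glomeruli (-1.26 ± 0.11, adjusted p = 8.3e-08). After LMB2 its differences were 0.11 and 0.08, with adjusted p of 0.45 and 0.56. The Epha10 probe was not well above background on any array and was not tested.

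Of the 5 ephrin-A ligands, 4 were called higher after LMB2, Efna2, Efna3, Efna4 and Efna5, and Efna1 was called lower, at day 4 and again at day 7. Over all genes, 12.1% were called higher and 21.6% lower at day 4, and 22% and 36.3% at day 7. Both times share the normal podocyte arrays. Efna1, the main ligand of EphA2, was at 1.98, 2.04, 2.60 and 1.43 in normal podocytes, 4.28, 3.76, 4.36 and 3.44 in glomeruli, 0.49, 1.04, 0.56 and 0.70 at day 4 and 0.91, 0.82, -0.04 and 0.26 at day 7. Podocyte levels were 3.85-fold below glomerular ones (-1.95 ± 0.28, adjusted p = 1.4e-05), and both LMB2 groups lay below every normal array, by -1.32 ± 0.28 (adjusted p = 0.0022) and -1.53 ± 0.28 (adjusted p = 2.7e-04).

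Efna3 was at -0.67, -0.71, -0.52 and -0.70 in normal podocytes, 0.22, 0.32, 0.23 and 0.12 at day 4 and 0.77, 0.68, 0.36 and -0.01 at day 7. Neither injured group overlapped the normal one, with rises of 0.87 ± 0.14 (adjusted p = 3.3e-04) and 1.104 ± 0.14 (adjusted p = 1.4e-05). A second Efna3 probe was not well above background on any array, so the rises were seen by 1 probe alone. Efna2 rose by 1.74 ± 0.52 (adjusted p = 0.019) and 2.03 ± 0.52 (adjusted p = 0.0039). Replicate 3 was its highest array at both times, and the day 4 rise was 1.13 without it; after normexp the rises were 0.87 or 0.72 at day 4, the last not called, and 1.05 or 0.88 at day 7. Efna5 rose by 0.86 ± 0.25 (adjusted p = 0.015) and 0.79 ± 0.25 (adjusted p = 0.013), with overlap through normal replicate 1. With each array's median over all probes set to 0 both Efna5 calls were lost (0.62 and 0.46), and without the 3 arrays high in tubule genes that of day 4 was (0.87). Efna4 was dim, above background on 1 of 4 normal podocyte arrays and 3 of 4 at each time after LMB2, and rose by 0.61 ± 0.16 (adjusted p = 0.0082) and 0.63 ± 0.16 (adjusted p = 0.0032). Its calls were lost with quantile normalization (0.36 and 0.29, or 0.05 and 0.04 after normexp) and with the median over all probes set to 0 (0.37 and 0.30), the day 4 call without the 3 arrays high in tubule genes (0.49), and after normexp with the 75th percentile the rises were 0.24 and 0.29. With the replicate number as a block, the day 4 calls of Efna2, Efna4 and Efna5 were lost.

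Between podocytes and glomeruli, the measured difference of Efna4 was -1.48, and -0.25 or -0.27 after normexp. It passed the filter on dim probes only through glomeruli, where it is highest, and 1 of 4 podocyte arrays was above background, so this value is a description. Efna2, Efna3 and Efna5 differed by 0.04, 0.13 and 0.38, with adjusted p of 0.95, 0.40 and 0.17. In this comparison same-numbered arrays were correlated, and with the replicate as a block Efna5 was called (adjusted p = 0.018, range 0.018 to 0.60 over its alternatives). With each array's median over all probes set to 0, Efna3 (0.45) and Efna5 (0.70) were called higher. From day 4 to day 7 the 5 ephrin-A genes differed by -0.21 to 0.30. Of these, Efna3 was called without day 7 replicate 4 (0.38).

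The 3 ephrin-B ligands each behaved differently. Efnb1, the podocyte's ephrin at the slit diaphragm, was at 8.48, 8.19, 8.38 and 8.17 in normal podocytes, 6.21, 6.19, 6.59 and 5.85 in glomeruli, 7.89, 8.40, 8.26 and 8.04 at day 4 and 7.93, 7.98, 7.71 and 7.47 at day 7. It was 4.28-fold higher in podocytes than in glomeruli (2.10 ± 0.16, adjusted p = 3.1e-08), at day 4 its difference was -0.16 (adjusted p = 0.49), and at day 7 it fell by 0.53 ± 0.16 (adjusted p = 0.011), with no overlap with normal. With each array's median over all probes set to 0 the difference was -0.86. Day 7 against day 4 was -0.38 (adjusted p = 0.089), and was called after normexp (-0.44 or -0.55) and with quantile normalization (-0.52).

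Efnb2, the ephrin of arterial endothelium and the ligand of EphB4, was at 2.80, 2.43, 2.84 and 2.09 in normal podocytes, 5.39, 4.93, 5.38 and 4.81 in glomeruli, 1.53, 1.37, 1.59 and 1.66 at day 4 and 2.39, 2.26, 1.87 and 2.34 at day 7. Podocyte arrays lay far below glomerular ones (-2.59 ± 0.18, adjusted p = 1.3e-08), and day 4 lay below every other group, by -1.003 ± 0.18 against normal (adjusted p = 8.2e-04). Day 7 was 0.68 ± 0.18 above day 4 (adjusted p = 0.011) and overlapped normal podocytes (-0.32, adjusted p = 0.15). The fall at day 7 was called without normal replicate 4 (-0.47), without the 3 arrays high in tubule genes (-0.51) and with each array's median over all probes set to 0 (-0.65). A second Efnb2 probe gave -2.56, -0.45, 0.18 and 0.63 in the 4 comparisons, so that the probes differ in sign for day 7 against normal.

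Efnb3 was at -4.75, -5.19, -5.55 and -5.04 in normal podocytes, where 1 of 4 arrays was above background, -3.68, -4.06, -4.16 and -4.43 in glomeruli, -2.48, -2.47, -2.15 and -1.81 at day 4 and -1.71, -1.34, -1.61 and -2.10 at day 7. All arrays after LMB2 were above all arrays of uninjured mice. The measured log2 differences from normal were 2.91 at day 4 and 3.44 at day 7, and smaller after normexp (0.86 or 0.71, and 1.12 or 0.95). Efnb3 passed the filter on dim probes only through the groups after LMB2, where it is high, so these values are a description and rest on normal arrays mostly at background. Between podocytes and glomeruli, where 3 of 4 arrays were above background, its difference was -1.05, and -0.05 or -0.12 after normexp. Day 7 against day 4 was 0.54 (adjusted p = 0.070), called without day 4 replicate 4 (0.68) or day 7 replicate 4 (0.67) and after normexp with the 75th percentile (0.27).

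**Figure D5:**
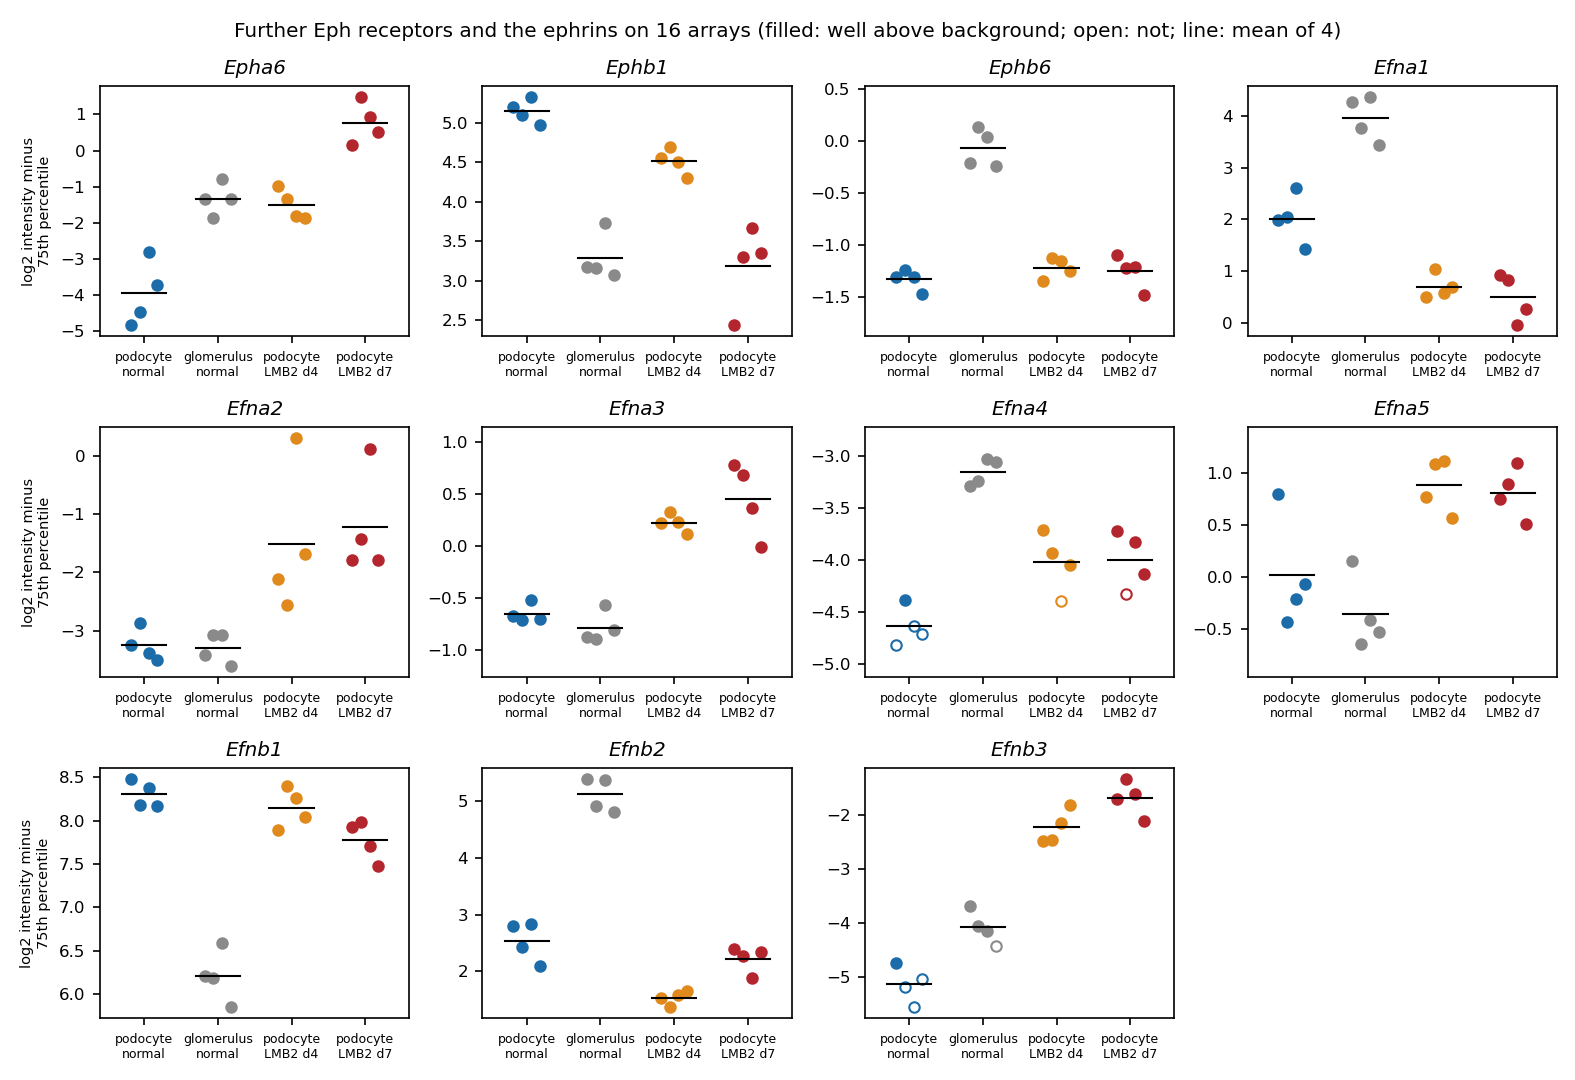
Each panel plots the log2 intensity minus the array's 75th percentile (y axis) of a further Eph receptor or an ephrin on the 16 arrays of the 4 groups (x axis); filled points were well above background, open points were not, and lines are means of 4 arrays. Epha6 and Efnb3 were higher on every array after LMB2 than on every normal podocyte array, Ephb1 and Efna1 lower, and Efnb1 was highest in the podocyte groups.

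Of 47 genes listed for Eph signalling and receptor processing, 45 were tested, and the others were not analysed here. Between podocytes and glomeruli 25 were higher and 13 lower, with a median of 0.49; of all genes 51.6% were higher and 27.6% lower, with a median of 0.38. The highest were Arhgef16, a guanine nucleotide exchange factor that binds EphA2 (2.92 ± 0.08), Ptpro, a phosphatase of podocytes that acts on Eph receptors (2.50 ± 0.15), Anks1b, a scaffold that binds EphA receptors (2.46 ± 0.23), and Nck2, an adaptor (2.32 ± 0.13). The lowest were Ptprb, a phosphatase of endothelium (-3.81 ± 0.25), Vav3, a guanine nucleotide exchange factor (-3.42 ± 0.63), Ngef, the exchange factor ephexin 1 (-3.11 ± 0.61), and Grb7, an adaptor (-2.96 ± 0.42).

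At day 4, 1 of the 45 rose and 11 fell, with a median of -0.24; of all genes 12.1% rose and 21.6% fell, with a median of -0.14. The rise was in Rock2, a kinase that acts on the actomyosin cytoskeleton (0.49 ± 0.14), and the largest falls in Grip1, a PDZ scaffold of ephrin-B (-1.38 ± 0.44), Sla, a Src-like adaptor (-1.05 ± 0.27), Mmp14, a membrane metalloprotease (-0.92 ± 0.20), and Rgs3, which couples ephrin-B to G proteins (-0.79 ± 0.23). At day 7, 9 rose and 19 fell, with a median of -0.25; of all genes 22% rose and 36.3% fell, with a median of -0.14. Src, a kinase downstream of Eph receptors, rose by 2.10 ± 0.39, Rock2 by 1.31 ± 0.14, Kalrn, a Rac exchange factor, by 1.23 ± 0.27, and Chn2, a Rac-inactivating chimaerin, by 1.12 ± 0.26. Sla was lower by -3.18 ± 0.27, Ptpro by -1.32 ± 0.15, Vav2 by -1.25 ± 0.50 and Fyn, a Src-family kinase, by -1.20 ± 0.16. From day 4 to day 7, 8 were higher and 9 lower, against 14% and 18.6% of all genes. The differences were led by Src (1.15 ± 0.39), Mmp14 (1.104 ± 0.20), Kalrn (0.93 ± 0.27) and Afdn, an actin-binding partner of Eph receptors (0.83 ± 0.25), and by Sla (-2.13 ± 0.27), Ptpro (-0.92 ± 0.15), Fyn (-0.72 ± 0.16) and Abl1, a kinase (-0.68 ± 0.11). Ptpro is also 1 of the 8 podocyte markers, whose fall is given above.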

How the data were processed

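Arrays were of 1 colour and read with Agilent Feature Extraction 11.5.1.1, per the file headers and the submitters' processing notes. The deposited scanner files hold linear intensity values, already background-subtracted by that program and not normalized between arrays, with flags for spots well above background, outlying and saturated (0 spots here). The authors' value table holds log2 values, each column an exact shift of 1 array's log2 processed intensity; the shift's origin is not stated, and 6 columns matched another replicate of their own group, so it served as an alternative only. The deposited flags, of another kind than a measured level, were used as yes or no.

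Control and outlying spots were left out, spots of a probe averaged, and the 75th percentile of each array was subtracted on the log2 scale. Probe accessions were matched to RefSeq (GRCm38.p6): 26582 of 55681 probes got a symbol, 20145 genes. Probes well above background on all 4 arrays of a group were kept (19060), 63 named probes missing on an array were left out, and a gene was its kept probe with the highest mean. All 14575 genes and 16 arrays entered 1 limma fit (limma 3.58.1, R 4.3.3; Python 3.11.15), Benjamini-Hochberg adjusted, called under 0.05. Intervals are at 95% with 14.3 moderated degrees of freedom. The fit was tested on simulated data. The number of arrays limits the precision.

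Same-numbered podocyte and glomerular arrays of uninjured mice correlated in their deviations from the group means (r 0.42 to 0.51, each highest with its own number). Such arrays also lay next to each other in a slide row, so a pairing of the samples and a shared position cannot be told apart. The main fit left out this pairing, and the replicate block was an alternative. In each other comparison at least 1 pair had an r under 0.1.

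Genes named are all members, the other Eph receptors, all ephrins, up to 4 called signalling genes in each direction by size, and the genes most alike in pattern (5 for Epha8, 2 for others spanning over 2). The members and lists were chosen with earlier results of these data known. Alternatives were normexp (offset 50), quantile normalization, median scaling, other filters (none, or above background on 12 arrays), the mean of probes, the value table, the replicate block, the 8 arrays compared, and leaving out each replicate. Added after seeing the data were the slide row as a block, the fit without the 3 arrays high in tubule genes, and the median over the genes tested.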

Additional observations from a re-analysis of the deposited data

Results flagged for a closer look

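Of 84 groups of 4 arrays examined over the receptors and ephrins, 3 held an array far from its group, where chance alone gives about 1 in 20. Epha2 in normal podocyte replicate 4 was 3.62 on the log2 scale, with the other 3 between 3.96 and 4.02. Epha4 at day 7 replicate 1 was -0.55, the others between -1.87 and -1.66. Ephb1 in glomerular replicate 3 was 3.74, the others between 3.07 and 3.17.

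The effect of LMB2 differed between its 2 times by the limma test of day 7 against day 4 for 8 of these genes. Those tested were 9 receptors without Epha8, 3 further receptors, 5 ephrin-A and 3 ephrin-B genes, and 32.6% of all genes were called. The differences were 1.12 for Epha2, 0.97 for Epha4, 0.62 for Epha5, 0.67 for Ephb3, 1.41 for Ephb4, 2.26 for Epha6, -1.33 for Ephb1 and 0.68 for Efnb2, with adjusted p from 3.5e-04 (Epha2) to 0.021 (Epha4). The replicates' ranges at both times did not overlap for any of the 8, and for 33.1% of all genes they did not overlap. Day 4 and day 7 arrays lay in different rows of the slide, so time and row cannot be told apart.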

How the results depend on the processing

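Counts of called receptors kept within 1.5 times under the alternatives run, with these exceptions. With each array's median over all probes set to 0, day 4 had 2 calls (main 1) and day 7 had 3 (main 5). Day 7 had 2 calls with only the 8 arrays compared, and without the 3 arrays high in tubule genes day 7 had 3 and day 7 against day 4 had 3 (main 5). Leaving out each replicate gave 5 to 6 calls for podocytes against glomeruli, 3 to 5 for day 7 and 4 to 5 for day 7 against day 4. The replicate block left podocytes against glomeruli at 6 calls and changed, among receptors and ephrins there, the call of Efna5 alone; elsewhere the samples share only a number, and the block gave 1 call at day 4, 3 at day 7 and 2 between the times. A slide block for the LMB2 comparisons was not run, because each slide holds its own groups.

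Signs turned in differences that were not called. Between podocytes and glomeruli these were Epha4 (0.0327, median over all probes), Epha5 (-0.14 with quantile normalization, -0.16 with normexp and quantile), Ephb3 (-0.18 and -0.18) and Efna2 (-0.0153, median over the genes tested; -0.0887 to 0.12 leaving out replicates). At day 4 they were Epha1 (-0.0045 with normexp and quantile, -0.0257 with the median; -0.24 to 0.55 leaving out replicates), Epha7 (-0.0146, normexp and quantile), Ephb3 (0.0092, median over the genes tested; -0.17 to 0.0455) and Ephb6 (-0.13, median). At day 7 they were Epha1 (0.19, normexp; -0.76 to 0.24), Epha3 (0.0191, normexp), Ephb2 (-0.10, -0.0629 and -0.31 with quantile, normexp and quantile, and median; -0.0731 to 0.0859) and Ephb6 (-0.0461, -0.0078 and -0.25). Between the times they were Epha1 (0.0016, normexp; -0.98 to 0.12), Epha3 (0.0196, normexp, and 0.0631 without the 3 arrays high in tubule genes; -0.37 to 0.19), Efna4 (-0.0747, -0.0141 and -0.0656; -0.11 to 0.12), Ephb6 (-0.0871 to 0.0402), Efna2 (-0.15 to 0.90) and Efna5 (-0.18 to 0.0282). The cause of these changes was not tested. Of 1693 alternative values for single genes, 1555 kept direction and side of the threshold, 64 lost the call, 24 gained it, 46 turned sign and 4, all of Epha8, moved. Signal near background limits Epha1, Epha3, Epha7, Epha8, Epha6, Efna2, Efna4 and Efnb3, each with a value that normexp moved by over 1.5 times.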

Other observations

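Genes next to Epha8 on the chromosome, by order in the RefSeq table of GRCm38.p6, were looked at on both sides. On the side listed before it lie the 3 chains of complement C1q, which myeloid cells make. C1qa rose after LMB2 by 2.08 ± 0.47 at day 4 (adjusted p = 0.0039) and 2.71 ± 0.47 at day 7 (adjusted p = 2.1e-04). C1qc had differences of 1.09 ± 0.80 and 0.93 ± 0.80 (adjusted p = 0.32 and 0.34), and C1qb of -0.36 ± 0.31 and -0.03 ± 0.31 (adjusted p = 0.39 and 0.95). On the other side, Zbtb40, a zinc finger protein, differed by 0.20 ± 0.14 at day 4 (adjusted p = 0.31) and fell by 0.44 ± 0.14 at day 7 (adjusted p = 0.015). The other 2 genes listed on that side, Gm23834 and Gm31648, were not analysed here. The 9 leukocyte markers, which include C1qa and C1qb, had a median difference of 0.42 at day 4 and 0.30 at day 7. Of these 9, 3 and 2 were called higher, where 12.1% and 22% of all genes were.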
